A study of Homo sapiens with 24 samples.

Results

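Transcript levels of 9 genes of homologous recombination and of the Fanconi anaemia pathway were followed through a cell-cycle time series of K562 cells. The genes are BRCA1, BARD1, BRIP1, BRCA2, RAD51AP1, EXO1, BLM, FANCI and FANCD2. They were taken from a list of symbols that was matched to the Ensembl identifiers of the expression table, and all 9 were found among its 12285 genes. K562 is an established human erythroleukaemia line. Cells were grown in RPMI medium with 10% bovine calf serum and antibiotics, and a synchronous population was obtained by centrifugal elutriation, which separates cells by size. Samples were then taken every 2 h from 0 h to 46 h for RNA sequencing. Each of the 24 time points is 1 library from this 1 line under 1 growth condition, with no replicate and no other treatment. The spread at a given hour is therefore not known. Time is the only labelled variable, and a difference between libraries cannot be told apart from one between hours.

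Homologous recombination repairs a broken DNA duplex by copying the sister chromatid, and it is used mainly in the S and G2 phases, when that copy exists. Nucleases resect the broken ends, the single strand invades the intact duplex with the help of BRCA2, and helicases later take the joint molecules apart. The Fanconi pathway acts on DNA interstrand crosslinks at stalled replication forks and hands the break that it makes to homologous recombination. Many of these genes are transcribed under E2F control with the genes of DNA replication.

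The labelled line was first compared with its markers. All 12 erythroid markers were in the table, among them HBG2, a fetal globin, at a mean of 2225 FPKM (fragments per kilobase of transcript, scaled to library size) and GATA1, the erythroid transcription factor, at 124 FPKM. Of 6 fibroblast markers, COL1A2 was the 1 present, at 2.93 FPKM. The libraries at 16 h and 18 h stood apart from the rest, and the study names both as STRIPEs, time points with altered levels across the transcriptome. It proposes that STRIPEs are technical and not biological, from a source that it did not identify. The source was not tested here. The sum of FPKM over all genes ranged from 456791 to 591309, and outside 16 h and 18 h it did not exceed 520382. At 16 h 102 genes and at 18 h 115 genes were listed at 0, against at most 58 at any other time point. Results that rest on these libraries are therefore given with and without them. The 9 genes were detected at every time point, each above 1 FPKM, so that no value of theirs was lost to a filter on low values.

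The levels of the 9 genes fell into a high and a low set. EXO1 had the highest median over the 24 time points, 80.7 FPKM, followed by FANCI at 65.6, RAD51AP1 at 46.0, FANCD2 at 41.3, BLM at 37.8 and BRCA1 at 34.9 FPKM. BRIP1, BRCA2 and BARD1 followed with medians of 7.90, 6.98 and 6.75 FPKM. The gap between the sets was clear at all hours, since BRCA1 exceeded BRIP1 at 24 of 24 time points, as FANCI exceeded RAD51AP1. Other neighbours in this order crossed each other. EXO1 was above FANCI at 21 time points, RAD51AP1 above FANCD2 at 20, BLM above BRCA1 and BRIP1 above BRCA2 at 19 each, and FANCD2 above BLM at 18. BRCA2 and BARD1 were not separable, with BRCA2 the higher at 10 of 24 time points. Subunits that act together differed in level. BRCA1 was a median of 5.07 times as high as its partner BARD1 in FPKM, with a range from 3.66 at 2 h to 7.92 at 18 h. FANCI was 1.60 times as high as FANCD2, and this ratio stayed between 1.36 and 2.09.

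**Figure D1:**
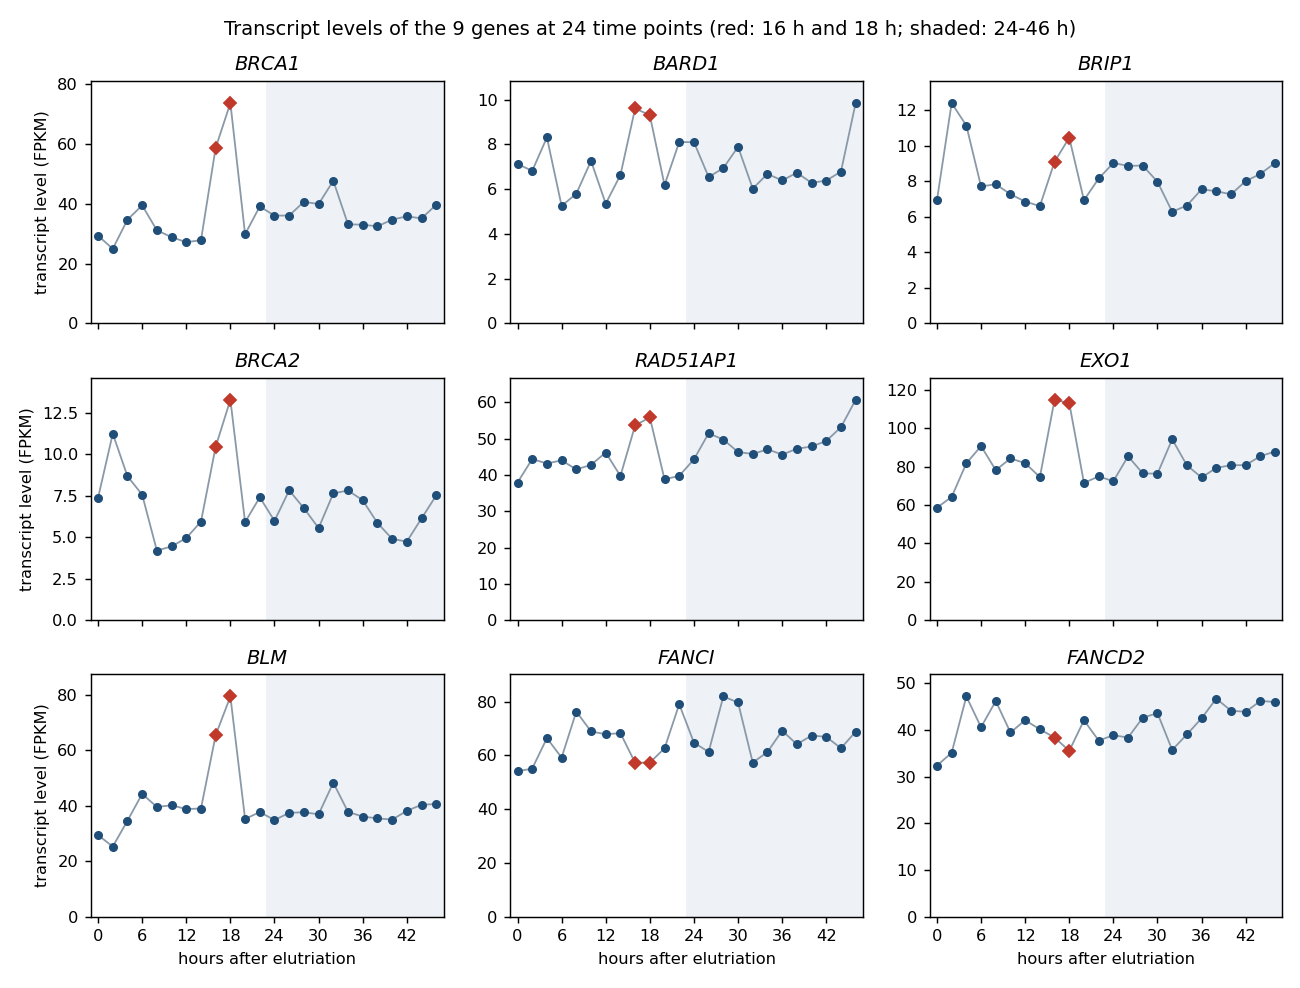
Transcript levels in FPKM (y axes, each from 0) of the 9 genes against hours after elutriation (x axes); each point is 1 library, red diamonds are 16 h and 18 h, and the shaded part covers the second 24 h. BRCA1, BRCA2 and BLM reach their highest value at 18 h and EXO1 at 16 h, BRIP1 is highest at 2 h with 12.4 FPKM, and FANCI and FANCD2 have no such excess at 16 h and 18 h.

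BRCA1, BARD1 and BRIP1 belong to one set of complexes. BRCA1 and BARD1 form the ubiquitin ligase that promotes end resection and BRCA2 recruitment, and BRIP1 is the helicase that binds the repeats at the end of BRCA1 and is also the Fanconi gene FANCJ. BRCA1 ranged from 24.9 FPKM at 2 h through a median of 34.9 to 73.7 FPKM at 18 h. It was 27.8 FPKM at 14 h, 58.8 at 16 h and 29.8 at 20 h, so 16 h and 18 h were the 2 highest of all its values and both neighbours were near its minimum. Without these libraries its highest value was 47.7 FPKM, at 32 h. BARD1 ranged from 5.25 FPKM at 6 h to 9.84 FPKM at 46 h, and 16 h and 18 h, at 9.60 and 9.30 FPKM, came next in height. BRIP1 had its highest value early, 12.4 FPKM at 2 h and 11.1 FPKM at 4 h, after 6.93 FPKM at 0 h. It was 6.60 FPKM at 14 h, between 8.86 and 9.02 FPKM from 24 h to 28 h, and lowest at 32 h with 6.28 FPKM. Its values at 16 h and 18 h, 9.09 and 10.4 FPKM, lay below the early high. In the second cycle its highest value was 9.03 FPKM at 46 h, just above the values from 24 h to 28 h.

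BRCA2 and RAD51AP1 act at the step of strand invasion, BRCA2 as a mediator of its start and RAD51AP1 as a factor that stimulates strand pairing. BRCA2 ranged from 4.19 FPKM at 8 h to 13.3 FPKM at 18 h, with a median of 6.98. Like BRIP1 it was high at 2 h, with 11.2 FPKM, and it was then at or under 5.93 FPKM from 8 h to 14 h. In the second cycle it stayed between 4.73 and 7.82 FPKM, so the wide course of the first cycle was not seen again at that size. RAD51AP1 varied less, from 37.9 FPKM at 0 h to 60.8 FPKM at 46 h. Its values at 16 h and 18 h, 53.7 and 55.9 FPKM, were above both neighbours, and the last time point was the highest of all.

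EXO1 and BLM work at opposite ends of the same reaction and also together, EXO1 as a resection nuclease and BLM as the Bloom syndrome helicase that supports resection and dissolves joint molecules. EXO1 ranged from 58.6 FPKM at 0 h to 114.9 FPKM at 16 h, and 18 h was nearly as high with 113.2 FPKM. BLM ranged from 25.3 FPKM at 2 h to 79.4 FPKM at 18 h, with 65.4 FPKM at 16 h and 35.2 FPKM at 20 h. Without 16 h and 18 h, BRCA1, EXO1 and BLM were all highest at 32 h, at 47.7, 94.3 and 48.3 FPKM, and all highest within the first cycle at 6 h. The study points to 32 h as a milder deviation, and all 3 genes were above both neighbouring time points there.

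FANCI and FANCD2 form the clamp that is ubiquitinated at crosslinks, the central step of the Fanconi pathway. FANCI ranged from 54.1 FPKM at 0 h through a median of 65.6 to 81.9 FPKM at 28 h, and it was also high at 22 h and 30 h, with 79.0 and 79.7 FPKM. FANCD2 ranged from 32.4 FPKM at 0 h to 47.2 FPKM at 4 h, with 46.7 FPKM at 38 h. At 16 h and 18 h both were below the time points on either side, FANCI with 57.3 and 57.4 FPKM and FANCD2 with 38.4 and 35.5 FPKM. Both were also low at 32 h, where FANCI was at 57.4 FPKM and FANCD2 at 35.7 FPKM. The pair thus had the narrowest ranges of the 9 genes, 1.52-fold for FANCI and 1.46-fold for FANCD2 from lowest to highest.

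Whether the levels followed a 24 h cycle was tested over all genes of the table. The JTK statistic S, the largest rank agreement with a 24 h cosine over 12 phases, was compared with 100000 orderings of the time points, and p-values were adjusted over all genes by the Benjamini-Hochberg method. The p-value treats the time points of 1 culture as exchangeable. With all 24 time points, 0 of the 9 genes passed an adjusted p of 0.05, against 11.9% of all genes, and 1 of 9 had an unadjusted p under 0.05, against 30.2% of all genes. That gene was BRIP1, with S = 110, a phase of 0 h, a permutation p = 0.0209 and an adjusted p = 0.0989, where a call required an S of 125. Without the library of 0 h alone BRIP1 passed, with a permutation adjusted p = 0.0411. BARD1 came next with S = 84 and adjusted p = 0.276, and the other 7 lay between 0.438 and 0.773. The median S was 54, against 76 over all genes. For comparison, MCM5, a subunit of the replicative helicase, had the highest S of the table at 210 with adjusted p = 0.00148, CCNE2, the cyclin of the G1/S transition, had S = 162 with adjusted p = 0.00509, and CCNB1, the mitotic cyclin, had S = 102 with adjusted p = 0.141.

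A limma fit of a 24 h cosine with a linear trend, on log2(FPKM + 1), gave the size of the cycle. Its p-values treat the residuals of neighbouring time points as independent, which they need not be. Over all 24 time points 0 of 9 genes passed, against 11.6% of the 12253 genes tested, and 1 of 9 had an unadjusted p under 0.05, against 35.0%. BLM had the largest log2 amplitude, 0.18 ± 0.09 (SE) with adjusted p = 0.277, and BRIP1 and BRCA2 followed at 0.16 ± 0.06 with adjusted p = 0.108 and 0.16 ± 0.10 with adjusted p = 0.404. RAD51AP1 had 0.02 ± 0.04 and FANCD2 0.04 ± 0.04. The median amplitude of the 9 genes was 0.10, against 0.14 over all genes tested.

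Without the libraries of 16 h and 18 h the picture changed for BRIP1 and BRCA1. By JTK 1 of 9 genes passed, against 16.2% of all genes. This was BRIP1, with S = 115, a phase of 2 h and adjusted p = 0.0339. By the limma cosine fit 2 of 9 passed, against 14.2%. BRIP1 had an amplitude of 0.19 ± 0.05, which is 1.31-fold from trough to peak, a fitted peak at 1.43 h and adjusted p = 0.0432. BRCA1 had an amplitude of 0.22 ± 0.05, or 1.36-fold, a fitted peak at 4.26 h and adjusted p = 0.0240. With all 24 time points the BRCA1 amplitude was 0.07 ± 0.10 (adjusted p = 0.831) and its fitted peak was at 19.9 h, so both its size and its hour differed between the settings. BRCA1 was not called by JTK in this setting, with S = 57 and adjusted p = 0.445. BRCA2 had the largest amplitude, 0.24 ± 0.08, with its peak at 2.34 h, and did not pass (limma adjusted p = 0.0999). The counts of 1 and 2 of 9 were near the background in both tests. The 9 genes also differed in how far the second cycle repeated the first at the same hour. Over the 10 hours other than 16 h and 18 h, r between the cycles was 0.56 for BRCA1, 0.41 for BARD1 and BRIP1, and between -0.22 and 0.22 for the other 6, against 0.97 for MCM5, 0.70 for CCNE2, 0.06 for CCNB1 and a median of 0.08 over all genes.

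**Figure D2:**
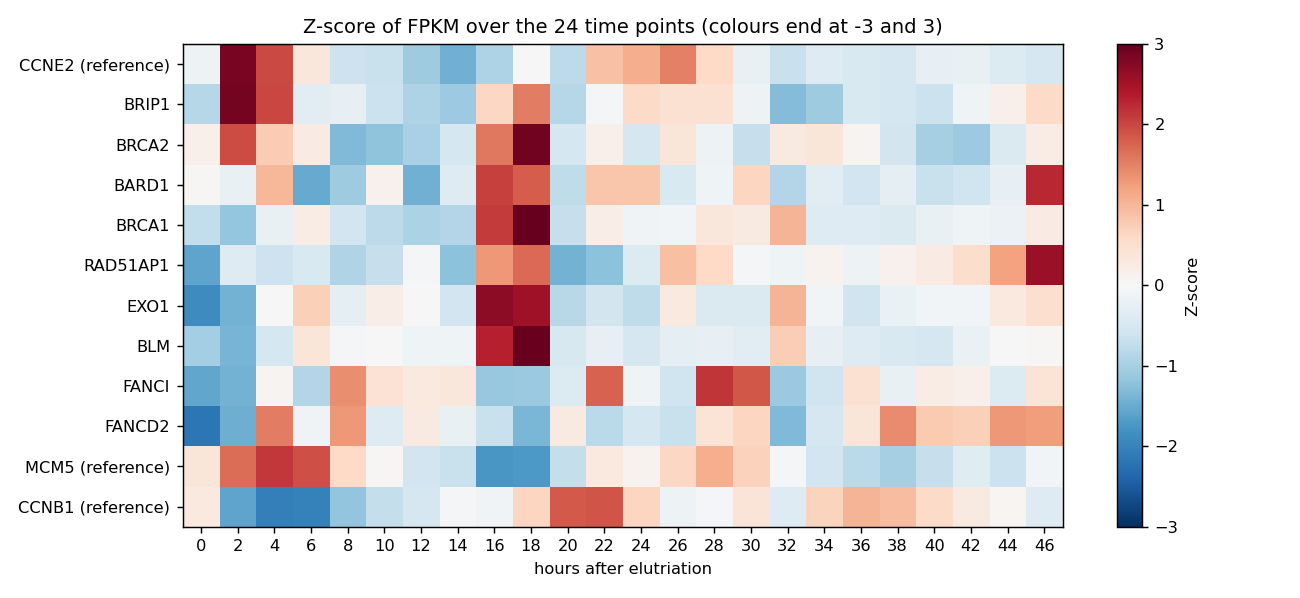
Z-score of FPKM (colour, red above and blue below the mean of each gene) by hour (x axis) for the 9 genes and 3 cell-cycle reference genes (rows). CCNE2 and BRIP1 are both highest at 2 h, the columns of 16 h and 18 h are red for 7 of the 9 genes, and FANCI and FANCD2 are blue there.

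The second 24 h were compared with the first at the same hour by a paired limma test on log2(FPKM + 1). The 12 pairs of time points come from 1 culture, so the p-values do not cover the spread between cultures. With all pairs 0 of 9 genes passed in either direction, against 9.57% of all genes that were higher and 5.16% that were lower in the second cycle, and 1 of 9 had an unadjusted p under 0.05, against 30.6%. Of the genes called, 65.0% were higher, and 54.0% after median centring and 51.7% after quantile normalization. RAD51AP1 came closest of the 9, with a log2 difference of 0.16 ± 0.07 (SE), higher in 9 of 12 pairs, and adjusted p = 0.134. It passed after upper-quartile scaling (limma adjusted p = 0.0315) and after quantile normalization (limma adjusted p = 0.0334). BRCA1 differed by 0.07 ± 0.13 with adjusted p = 0.749 although it was higher in 10 of 12 pairs. Without the pairs that hold 16 h and 18 h, 2 of 9 genes were higher in the second cycle, against 12.6% of all genes, and 0 of 9 were lower, against 6.80%. BRCA1 rose by a log2 difference of 0.26 ± 0.06, or 1.20-fold, in 10 of 10 pairs with adjusted p = 0.0124. RAD51AP1 rose by 0.22 ± 0.06, or 1.17-fold, in 9 of 10 pairs with adjusted p = 0.0208. The median over these pairs went from 29.6 to 36.1 FPKM for BRCA1 and from 42.2 to 47.2 FPKM for RAD51AP1. The remaining 7 genes had differences between -0.01 for BRIP1 and 0.10 for EXO1 and did not pass, with limma adjusted p of 0.330 or more. At 46 h all 9 genes were above their own median, as were 49.6% of all genes tested. This last observation is a single library.

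**Figure D3:**
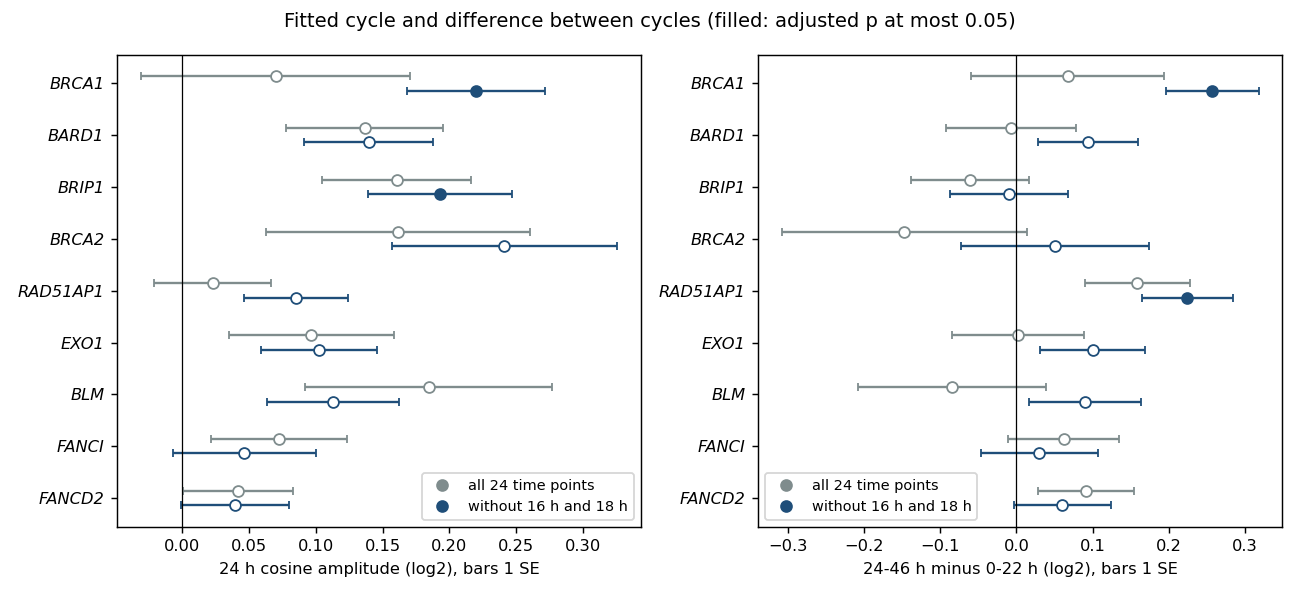
Left, amplitude of the fitted 24 h cosine, and right, difference of the second minus the first 24 h, both on the log2(FPKM + 1) scale with bars of 1 SE, for all 24 time points (grey) and without 16 h and 18 h (blue); filled points have a limma adjusted p of at most 0.05. The filled points are BRCA1 and BRIP1 on the left and BRCA1 and RAD51AP1 on the right, all of them without 16 h and 18 h.

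The size of the departure at 16 h and 18 h was measured as the mean deviation from a line drawn from 14 h to 20 h on log2(FPKM + 1). It has no test, as each time point is 1 library, and was set beside the same measure at 16 other pairs of neighbouring time points. BRCA1 deviated by 1.16, BLM by 0.94, BRCA2 by 0.89, EXO1 by 0.64, BARD1 by 0.50 and RAD51AP1 by 0.47. All 6 lay above their range over the other pairs, whose upper ends were between 0.16 for RAD51AP1 and 0.40 for BRCA1. BRIP1 deviated by 0.47, inside its range up to 0.62, which its early high sets. FANCD2 deviated by -0.15 and FANCI by -0.19, within their ranges. In counts, 1 of 9 genes (BRCA1) was at least 2-fold above the line, against 8.95% of all genes, and 0 of 9 were at least 2-fold below it, against 7.11%. The median deviation was 0.50, against 0.14 over all genes, and 6 of 9 lay above their own range, against 43.6% of all genes. Median centring moved the median of all genes to 0.02 and that of the 9 genes to 0.38, and upper-quartile scaling to -0.06 and 0.29.

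The GC content of the transcripts moved with this deviation. Over all genes the median deviation was 0.56 for transcripts of 30 to 40% GC, 0.41 for 40 to 45%, 0.20 for 45 to 50%, -0.03 for 50 to 55%, -0.30 for 55 to 60% and -0.61 for 60 to 80%. The 9 genes have 36.0 to 44.0% GC with a median of 41.2%, against 48.1% over all genes. FANCD2 and FANCI, the 2 genes below the line, have the highest GC of the 9, 44.0 and 43.4%. Both are in the group of 40 to 45% GC, whose median deviation was 0.41. EXO1, BRCA1 and BLM, with 42.4, 41.9 and 41.2% GC, are in the same group and were above the line. After a smooth trend with GC was removed at each time point, a setting added after the data were seen, BRCA1 kept a deviation of 0.67, BLM 0.50, BRCA2 0.33 and EXO1 0.23. BARD1, RAD51AP1 and BRIP1 were then at -0.09, -0.08 and -0.12, FANCD2 at -0.53 and FANCI at -0.55, and the median was -0.08. The part of GC content in the deviation of a single gene was not tested.

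**Figure D4:**
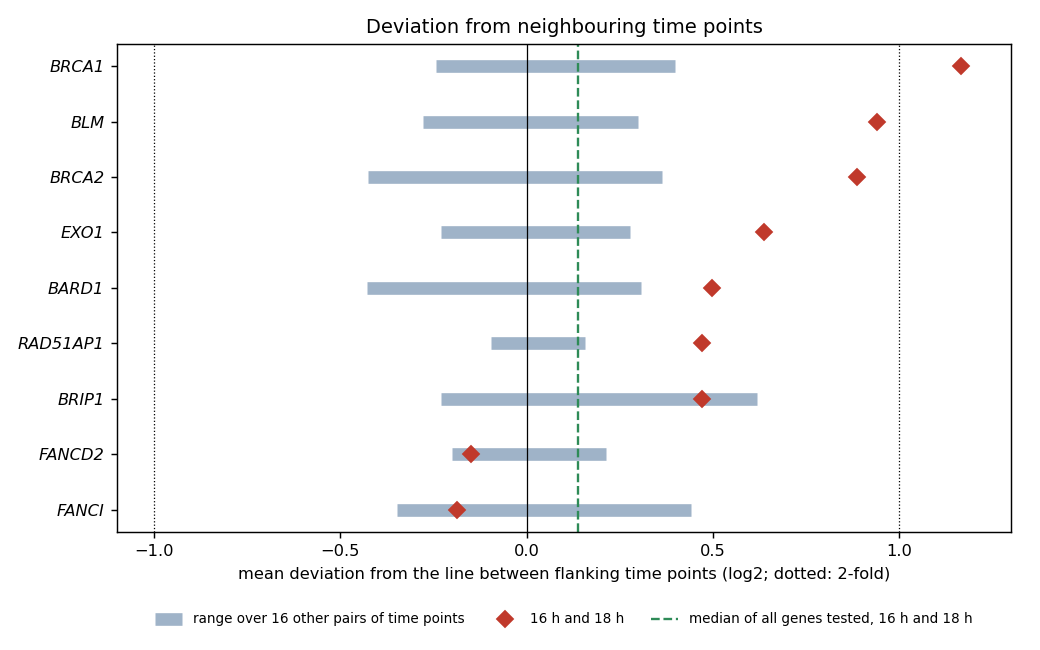
Mean deviation of 16 h and 18 h from the line between 14 h and 20 h (red diamonds, x axis, log2) for each of the 9 genes, with the range of the same measure over 16 other pairs of time points (bars) and the median over all genes tested (dashed, 0.14). The diamonds of BRCA1, BLM, BRCA2, EXO1, BARD1 and RAD51AP1 lie to the right of their bars, and those of BRIP1, FANCD2 and FANCI inside.

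The courses of the 9 genes were compared with each other by Pearson r on log2(FPKM + 1), given as a description since the points share libraries. Over 36 pairs the median r was 0.31 with 24 time points and 0.23 with 22, against 0.0185 and 0.015 over all pairs of genes tested. In the Z-score quantile-normalized table that the authors deposited, the median r of the 36 pairs was 0.07, against -0.004 over all pairs. Without 18 h alone it was 0.17, after upper-quartile scaling 0.11, and with the GC trend removed 0.0258. The median over all pairs of genes was not computed without 18 h, after upper-quartile scaling or with the GC trend removed. BLM and EXO1 were the most alike, with r = 0.92 over 24 and 0.85 over 22 time points. The ratio of EXO1 to BLM stayed between 1.91 and 2.54 outside 16 h and 18 h, where it was 1.76 and 1.43. BRCA1 joined them, with r = 0.86 with BLM and 0.80 with EXO1, which were 0.60 and 0.56 over 22 time points. BRIP1 and BRCA2 formed another pair with r = 0.59 and 0.51, and FANCI and FANCD2 one with r = 0.57 and 0.52. Between these groups r ranged widely and moved either way once 16 h and 18 h were left out. BRCA1 and BRCA2 had r = 0.53 over 24 and 0.10 over 22 time points, BRCA2 and FANCI r = -0.55 over 24 and -0.46 over 22 time points, BLM and FANCI -0.16 and 0.26, and BLM and BRIP1 0.04 and -0.51. The groups stood apart in the first hours, in which BRIP1 and BRCA2 were high at 2 h while BRCA1 and BLM had their lowest values.

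BRIP1 and BRCA2 were also the genes most like CCNE2. For BRIP1 r with CCNE2 was 0.74 over 24 and 0.84 over 22 time points, and for BRCA2 0.43 and 0.64. At 2 h BRIP1 was 1.79-fold, BRCA2 1.52-fold and CCNE2 1.85-fold its level at 0 h, each a ratio of 1 library to another. BLM was the opposite, with r = -0.36 and -0.50 with CCNE2 and 0.86-fold its level at 0 h.

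**Figure D5:**
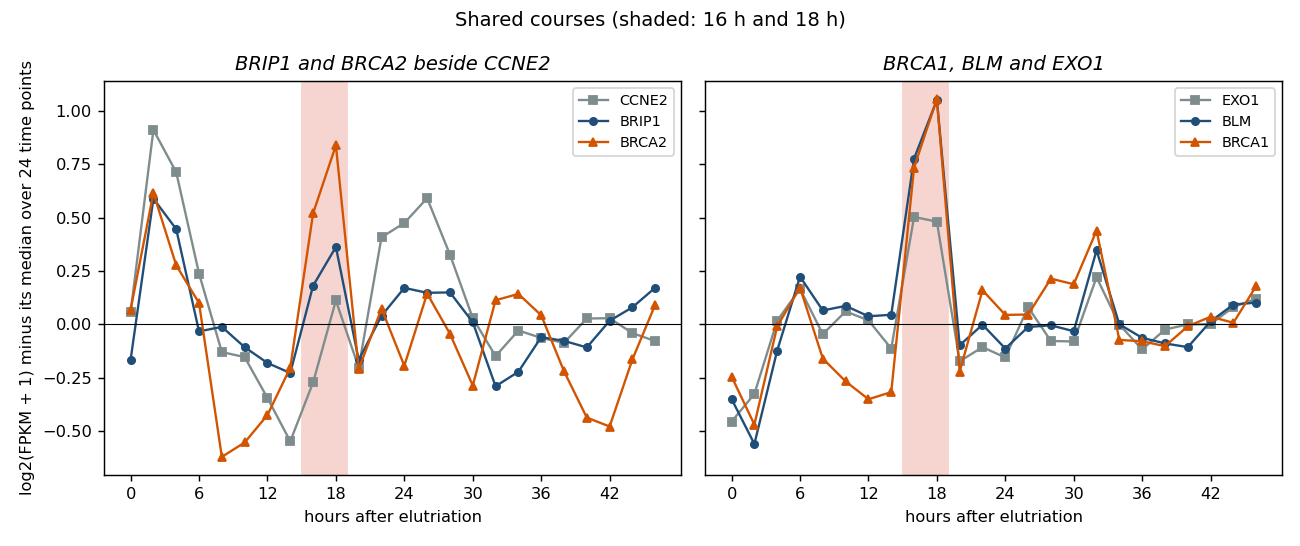
log2(FPKM + 1) minus its median over the 24 time points (y axis) by hour (x axis), for BRIP1 and BRCA2 beside CCNE2 (left) and for BRCA1, BLM and EXO1 (right); each point is 1 library and 16 h and 18 h are shaded. The 3 genes on the left are high at 2 h and 4 h. Those on the right are at or near their lowest at 2 h and share highs at 6 h, 16 h, 18 h and 32 h.

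Among genes outside the set, those most like the mean Z-score of the 9 genes over 24 time points were AAK1, RBBP8, NEDD4, SKA1, OSBPL6, DCUN1D4, ZEB2, RRM1, ZNF619 and GAPVD1, with r from 0.86 to 0.89. Over 22 time points their r was lower, from 0.63 to 0.77. All of them deviated upward at 16 h and 18 h, by 0.48 to 1.19. RBBP8 encodes CtIP, which starts end resection, RRM1 the large subunit of ribonucleotide reductase and SKA1 a kinetochore protein. For single genes, the most alike of the whole table was DNA2 for EXO1, with r = 0.96 over 24 and 0.91 over 22 time points. DNA2 is the other long-range resection nuclease and works with BLM. CENPU, a centromere protein, was the most alike for BRIP1, with r = 0.88 and 0.91. CCP110 was closest to BRCA1 (r = 0.97 and 0.90), IKZF4 to BLM (0.97 and 0.82), CRBN to BRCA2 (0.88 and 0.77), PTAR1 to RAD51AP1 (0.87 and 0.84), TTC5 to FANCI (0.86 and 0.85), GFPT1 to BARD1 (0.80 and 0.69) and ADAMTS3 to FANCD2 (0.76 and 0.76).

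Because several of the genes moved together and E2F is known to drive many of them, their promoters were searched for E2F-type letters in RefSeq (GRCh38.p14) windows of 250 bases before to 50 bases after the annotated start. FANCI had no entry. The runs TTTCGCGC, TTTGGCGC, TTTCCCGC and TTCCCGCC were sought on both strands. The 8 genes with an entry have 10 windows, as BRCA1 and EXO1 have 2 each. At least 1 run was found in 5 of the 10, each of another gene, against 5.03% of 35116 promoters. The 5 genes are RAD51AP1, FANCD2, BLM, BRIP1 and EXO1, and BRCA1, BRCA2 and BARD1 had none of these runs in these windows. Other E2F-type letters were not sought. TTCCCGCC can overlap the GC box GGGCGG, which 44.95% of all promoters hold. The 30 bases around each run follow, 5′ to 3′ on the strand of the run, with the run in capitals, because they show how alike the letters are in genes whose courses differ.
RAD51AP1, chr12:4538857-4538886, minus strand: ggcggtttcaaTTCCCGCCcaaaaccagac
FANCD2, chr3:10026424-10026453, minus strand: tagttttcgacTTTCCCGCCaggcccgacg
BLM, chr15:90717260-90717289, minus strand: tcggacatctgTTCCCGCCccctcaggctg
BLM, chr15:90717337-90717366, minus strand: ccctggctcacTTCCCGCCggaagcttgcc
BRIP1, chr17:61863509-61863538, plus strand: cccgagacgaaTTCCCGCCtcccgccccct
EXO1, chr1:241848197-241848226, plus strand: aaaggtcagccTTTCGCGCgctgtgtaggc
The TTCCCGCC run is in BLM, which was low at 2 h, and in BRIP1, which was highest at 2 h. Counted from the start, the runs begin at base 2 in BRIP1, -3 in FANCD2, 5 in EXO1, 3 and -75 in BLM and -22 in RAD51AP1. A match is a description of these windows and no evidence of binding.

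The CCAAT box, CCAAT on either strand, was found in 4 of the 10 windows, near the 34.6% of all promoters. BRIP1 held 3 in the 120 bases before its start and BLM 2, and the windows of these genes are given with the CCAAT, E2F-type and GC box letters in capitals, beside that of BRCA2, which shares the early high of BRIP1 and holds only the E box CACGTG, a motif of 7.26% of promoters.
BRIP1, chr17:61863529-61863648, minus strand: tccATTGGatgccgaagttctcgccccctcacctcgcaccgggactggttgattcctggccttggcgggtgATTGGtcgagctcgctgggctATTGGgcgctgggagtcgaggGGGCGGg
BLM, chr15:90717226-90717345, plus strand: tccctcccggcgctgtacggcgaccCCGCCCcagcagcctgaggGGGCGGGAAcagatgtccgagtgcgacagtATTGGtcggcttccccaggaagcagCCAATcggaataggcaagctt
BRCA2, chr13:32315388-32315507, plus strand: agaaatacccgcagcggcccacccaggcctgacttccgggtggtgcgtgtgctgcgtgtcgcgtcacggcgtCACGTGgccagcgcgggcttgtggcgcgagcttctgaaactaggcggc
ATTGG is CCAAT read on the other strand. BRIP1 and BRCA2 have no searched motif in common in these stretches.

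Other genes of the same pathways were followed with lists that hold none of the 9. Of 44 partners in homologous recombination, 8 passed JTK, or 18.2%, and of 19 Fanconi partners 3 passed, or 15.8%, against the 11.9% of all genes. EME2, a subunit of a joint-molecule nuclease, had S = 152 with a phase of 6 h and permutation adjusted p = 0.0118, RAD51D, another strand-invasion factor, S = 144 with a phase of 4 h, and SLX4, a nuclease scaffold that is also FANCP, S = 138 with a phase of 4 h. XRCC3, RPA2, ABRAXAS1, PARPBP and RMI2 made up the rest. FANCA (S = 142, phase 6 h), ERCC1 (S = 136, phase 8 h) and FANCE (S = 132, phase 2 h) were the Fanconi partners that passed. EME2, RAD51D, FANCA, ERCC1 and FANCE all had their lowest value at 18 h, with EME2 at 3.34 FPKM and FANCE at 4.998 FPKM. BRCA1, BRCA2 and BLM were highest at this hour, which the study names as a STRIPE. ABRAXAS1, PARPBP and RMI2 had their highest value at 18 h, with 58.9, 52.6 and 40.9 FPKM. The partners named as lowest there have 47.1 to 70.3% GC. ABRAXAS1, PARPBP and RMI2 have 38.4, 35.1 and 48.7%, and BRCA1, BRCA2 and BLM 41.9, 36.3 and 41.2%. The part of GC content in this contrast was not tested. DNA2 and RAD54L had the lowest S of the partners in homologous recombination, with S = 14 each. Between the cycles MCM9 (-0.20, limma adjusted p = 0.0443) and CENPS (-0.31, limma adjusted p = 0.0290) were lower in the second 24 h, and 0 of 44 and 0 of 19 were called higher. Without 16 h and 18 h neither MCM9 nor CENPS was called lower. These counts rest on few libraries. With 1 time point left out at a time the 44 gave 2 to 8 calls, 2 without 4 h, 3 without 6 h, 4 without 8, 26, 34 or 40 h and 5 without 10, 14, 18, 38 or 46 h, and the 19 gave 0 without 6 h, 1 without 4 or 8 h and 5 without 30 h. Over all genes, leaving out 1 time point gave from 937 calls, without 6 h, to 1802, without 32 h, against 1460 with all 24. Without 4 h it gave 1032 and without 8 h 983. With the GC trend removed 4 of 44 and 0 of 19 passed, against 781 of 12285 genes. Without 6 h, 16 h, 18 h and 32 h, 5 of 44 and 1 of 19 passed, against 1061 of 12285 genes. At a period of 20 h 3 and 0 passed, against 395 of all genes, and at 28 h 2 and 0, against 447. After quantile normalization 1 of 19 passed, against 1512 of all genes. Of the 19, 5 passed where those under 10 FPKM were dropped, against 1159 of the 7169 genes that remained. Without 16 h and 18 h, 9 of 44 and 3 of 19 passed JTK, against 16.2% of all genes. ABRAXAS1, EME2, RAD51D, RMI2, SLX4, XRCC3, ERCC1 and FANCE were called in both settings, FANCA, RPA2 and PARPBP only with the 2 libraries, HELQ, SFR1, SWI5 and CENPS only without them, and XRCC2, RAD54B and MCM8 were then higher in the second cycle.

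Other repair routes and the cell-cycle lists gave a scale for these counts. Of 18 genes of end joining, 0 passed JTK, with S = 122 at most (SHLD1), and NHEJ1 was lower in the second 24 h by a log2 difference of 0.26 (limma adjusted p = 0.0158). Of 23 genes of mismatch and base excision repair 6 passed, with PMS1 at S = 160 the highest. Of 39 S phase genes 14 passed, or 35.9%, and without 16 h and 18 h 23 passed, or 59.0%, while the 9 genes gave 0 and 1. Of 53 G2/M genes 10 passed, and 6 without the 2 libraries. In the paired test without those libraries 18 of the 53 G2/M genes were higher in the second cycle, as BRCA1 and RAD51AP1 were, against 12.6% of all genes. Of the 39 S phase genes 0 were higher. In the other direction 3, MCM5, PCNA and UNG, were lower, near the 6.80% of all genes that were lower.

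Neighbouring genes on the genome were also read, since the counting of reads by strand is not given in the sources used here. NBR1 starts head to head with BRCA1 at the outermost annotated start of BRCA1. With a deviation of 0.06 at 16 h and 18 h, NBR1 did not share the excess of BRCA1 there. Only protein-coding neighbours were read, and no head-to-head partner was sought at the other BRCA1 promoter window. C12orf4 starts head to head with RAD51AP1 and had a deviation of 0.45, close to the 0.47 of RAD51AP1, while r between the pair was 0.13 over 24 and -0.22 over 22 time points. POLG overlaps FANCI on the opposite strand, so that reads from the shared stretch cannot be told apart without strand. The length of that stretch was not measured. POLG deviated by -0.93 and had r = 0.33 with FANCI over 24 and 0.05 over 22 time points. BRCA1, FANCD2 and RAD51AP1 have pseudogene copies in the genome, and how reads shared with them were assigned is not given, so their levels carry that uncertainty.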

How the data were processed

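RNA of 24 K562 time points was sequenced, 1 library each. Per the submitters' processing notes the authors used STAR, Cufflinks and Cuffnorm with GRCh37, with versions and strand setting not given. The deposited table holds FPKM, in which every gene has at least 1 FPKM at 12 or more time points. A second deposited table holds a score, the Z-score of each gene with quantile normalization applied after it. The authors' Cuffnorm step normalizes FPKM between libraries, so a transcriptome-wide change at 1 time point alters every value there. Depth is unknown, and no counting error can be given. Samples were matched to hours by their labels. No column was unused.

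FPKM were tested as deposited by JTK (period 24 h, 12 phases, 100000 orderings, NumPy 2.4.6). Cosine and paired fits used limma 3.58.1 in R 4.3.3 on log2(FPKM + 1), after genes whose mean was under 1 FPKM were dropped. This scale understates changes of low genes. Adjustment was over all genes tested, at 0.05. The scripts were tested on simulated data. Names came from a gene table in which 12123 of 12285 identifiers matched, GC content from GENCODE 29 (GRCh38) and promoters from RefSeq GRCh38.p14. As that build differs from the authors', FPKM were joined by gene identifier and not by coordinate. Neighbouring genes were picked by their GENCODE 29 coordinates.

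The members and lists were chosen with earlier results of these data known. Genes named beside the 9 were the 10 most like their mean, the most like for each, and from each list those with the 4 highest and 2 lowest S or called between the cycles, with others named after their values were seen. Alternatives were other time points left out, PCHIP interpolation, other scalings, filters, pseudocounts, periods and the deposited score.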

Additional observations from a re-analysis of the deposited data

How the results depend on the processing

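With all 24 time points 0 of the 9 genes passed JTK, the cosine fit or the paired test, so a setting could only add calls. BRIP1 was the 1 gene that passed JTK without 16 h and 18 h, without 6 h, 16 h, 18 h and 32 h, with PCHIP interpolation of 16 h and 18 h, which imputes both values, with upper-quartile scaling, with the GC trend removed and in the deposited cleaned table (adjusted p from 0.0178 to 0.0459). Without single time points the count was 0 to 1, with BRIP1 called without 0 h. In the cosine fit 2 genes, BRCA1 and BRIP1, passed without 16 h and 18 h, without 6 h, 16 h, 18 h and 32 h, and with PCHIP interpolation, and the range without single time points was 0 to 1, BRIP1 again without 0 h (limma adjusted p = 0.0377). In the paired test 2 genes, BRCA1 and RAD51AP1, passed in the same 3 settings, and 1 gene, RAD51AP1, with upper-quartile scaling, quantile normalization or the GC trend removed, while leaving out any 1 pair gave 0. At 16 h and 18 h the 9 genes had a median deviation of 0.38 after median centring, 0.29 after upper-quartile scaling, 0.41 after quantile normalization, 0.56 with a pseudocount of 0.1 and -0.0800 with the GC trend removed. The median r between the genes was 0.11 after upper-quartile scaling, 0.0258 with the GC trend removed and 0.0714 in the cleaned table, and between 0.17 and 0.39 with 1 time point left out, lowest without 18 h. Over all genes JTK gave 395 calls at a period of 20 h, 447 at 28 h, 781 with the GC trend removed and 937 without 6 h, against 1460. The cosine fit gave 157 and 384 at those periods, 3248 with PCHIP, 933 with the GC trend removed and 593 to 889 without 6, 8, 10, 16 or 18 h, against 1419. The paired test gave 3704 with PCHIP and 775 for genes of at least 10 FPKM, against 1805. Why the counts moved was not tested. BRIP1, BRCA2 and BARD1 have means under 10 FPKM and gave no value with that filter. No paired analysis was possible because each time point has 1 sample, so replicate numbers pair nothing, and the paired test above pairs hours. The depth is unknown, and with 1 library per time point the error of a single value cannot be given.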
